A study of Mus musculus with 22 samples.

Results

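Livers of mice given an agent labelled YC were compared with livers of mice given vehicle, 28 days after a protective drug was withdrawn. The comparison takes 15 of the 22 livers of the series, 7 YC and 8 vehicle, chosen by the titles and treatment labels, and covers the 12537 genes of 18716 table rows that passed a filter on low values. All 22 livers carry the genotype Fah-/-, the loss of fumarylacetoacetate hydrolase, which completes the breakdown of tyrosine. Mice of the YC and vehicle groups had received transplanted hepatocytes labelled td, NTBC was then withdrawn, and YC or vehicle was given up to day 28. The 7 remaining livers, labelled as normal liver and D0, were taken on day 0. They are quoted for reference, without a test. Values are RPKM, which divide a gene's reads by its length and by the reads of the library. The sources used here do not give the strain, age and sex of the mice, the dose of YC, what YC is or what td stands for. The labels do not say that replicates are separate animals, so a p-value here sets the groups against a spread between libraries that may be technical. The stated purpose of the comparison was to ask whether YC drives transplanted hepatocytes to grow by way of dedifferentiation.

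A mature hepatocyte devotes much of its mRNA to a small number of secreted and metabolic proteins, among them albumin, apolipoproteins, clotting and complement factors, P450 enzymes and enzymes that break down amino acids. Fetal hepatocytes instead express alpha-fetoprotein and insulin-like growth factor 2, and injured or cultured hepatocytes can lose adult transcripts and take up progenitor or fetal ones, which is the sense of dedifferentiation. NTBC blocks an early step of tyrosine breakdown, and without it hepatocytes lacking Fah accumulate toxic intermediates while Fah-bearing donor cells have a growth advantage. The samples are whole livers, a mixture of recipient and donor hepatocytes with bile duct, stellate, endothelial and immune cells, so fewer cells of a type and less RNA per cell cannot be told apart.

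Fah, the gene that the genotype names, was examined first. YC livers 1 to 7 held 105, 128, 289.7, 407, 291, 41.3 and 31.5 RPKM, and vehicle livers lay between 271 and 542 RPKM (median 401). The libraries labelled YC 6 and YC 7 stood lowest, close to or within the D0 range of 21.1 to 38.7 RPKM, and 4 of 7 YC livers fell below every vehicle liver. Mean log2 values differed by -1.61 (two-sided exact permutation p = 0.00311, adjusted over 3 exact tests 0.00311), by -1.96 with median-ratio scaling (exact permutation p = 0.000777) and by -0.88 without YC 6 and YC 7 (exact permutation p = 0.0148).

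Several libraries stood apart from their group. On the first 2 principal components YC 6 and YC 7 lay together, away from the other YC livers, and YC 4 was the YC liver closest to the vehicle livers. Transcripts of 4 Y-linked genes (Ddx3y, Eif2s3y, Kdm5d and Uty) summed to 5.55 to 35.6 RPKM in the 8 vehicle livers and 17.4 to 31.9 RPKM in YC 1 to YC 3. They were at 0 in YC 4 to YC 7, so the presence of Y-linked transcripts and the treatment are partly confounded. D0 livers held 0 to 0.0454 RPKM of them, and whether they came from recipient or donor cells was not tested. The pancreatic acinar protease transcript Prss2 reached 65.3 RPKM in vehicle 1 and 134.8 RPKM in YC 4, and at most 0.24 RPKM in the other 13 livers. Correlations of log2 values between libraries were 0.932 to 0.991 among vehicle livers, 0.903 to 0.995 among YC livers and 0.902 to 0.972 between the groups. Estimated depths were 50200000 to 82700000 reads or fragments for YC livers and 51000000 to 71800000 for vehicle livers. Every YC and vehicle liver held at least 214 RPKM of each of the hepatocyte markers Alb, Ttr, Apoa1 and Cps1. Values are also given without YC 6 and YC 7 where a named gene loses its call or moves by over 1.5 times, or a list's count as deposited moves by over 1.5 times.

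**Figure D1:**
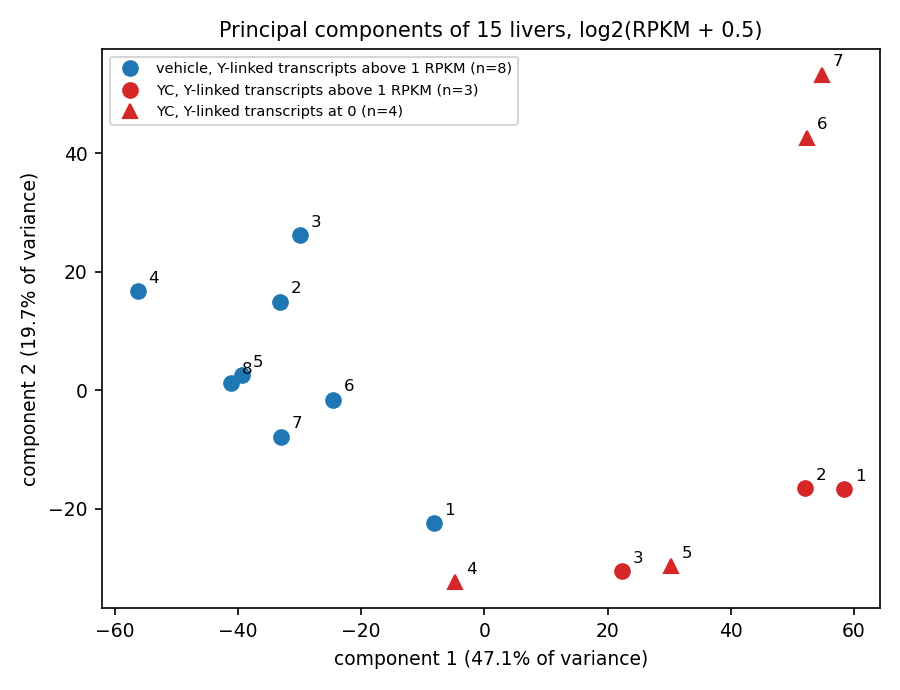
Principal components of log2(RPKM + 0.5) over the 12537 genes and 15 livers, with component 1 (47.1% of variance) on the horizontal axis and component 2 (19.7%) on the vertical axis. Points are single livers with their replicate numbers, colour gives the group and triangles mark livers without Y-linked transcripts. All vehicle livers lie below 0 on component 1, and YC 6 and YC 7 lie highest on component 2.

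The most abundant genes took a smaller share of the RPKM in YC livers. A single set of 50 genes, those with the highest mean over all 22 livers, was summed in every library. Only 7 of those 22 are YC livers, so the set is weighted to genes abundant in the others. It took between 25.7% and 33.8% of the total RPKM in YC livers (median 29.5%) and between 33.9% and 40.2% in vehicle livers (median 37.5%). All 7 YC livers lay below all 8 vehicle livers. The group means were 29.3 ± 2.64% (SD, n = 7) and 37.4 ± 2.12% (SD, n = 8), a difference of -8.05 percentage points (exact permutation p = 0.000155, the smallest p the design allows, adjusted over 3 exact tests 0.000466). Without YC 6 and YC 7 the difference was -6.84 points (exact permutation p = 0.000777). Genes at 1 RPKM or more numbered 11148 to 11762 in YC livers (median 11529) and 10278 to 11402 in vehicle livers (median 10776), and 4 of 7 YC livers exceeded every vehicle liver. The difference in this count was 646 genes as deposited (exact permutation p = 0.00171, adjusted over 3 exact tests 0.00256) and 186 genes after median-ratio scaling (exact permutation p = 0.0903). Median-ratio scaling divides each library by the median ratio of its genes to their mean over libraries, and its factors were 1.01 to 1.27 in YC livers and 0.822 to 1.06 in vehicle livers.

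**Figure D2:**
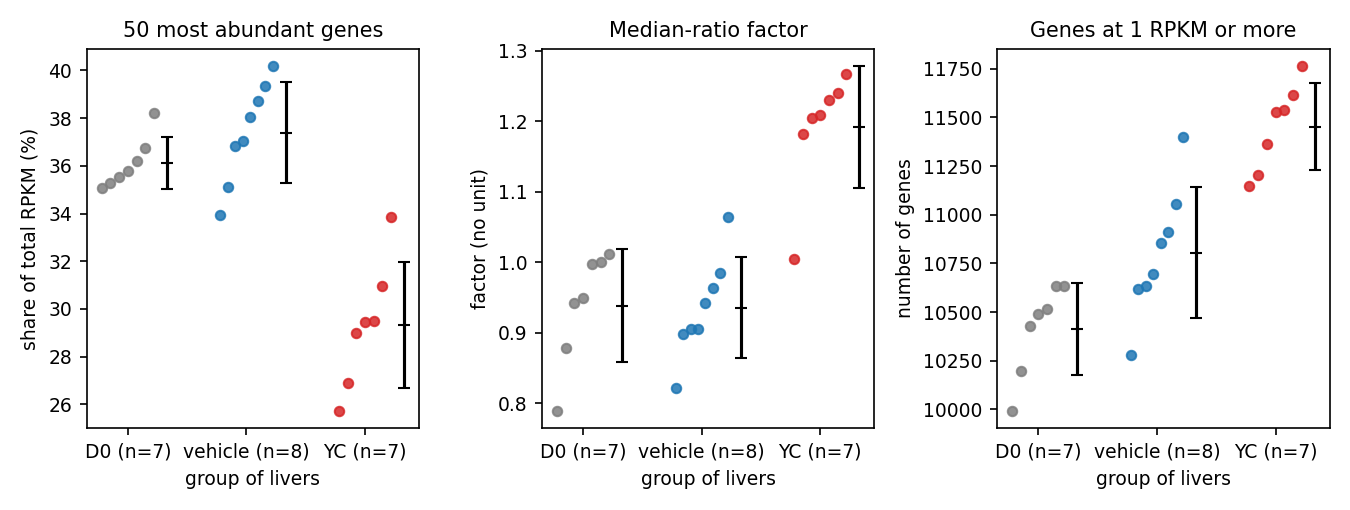
Share of total RPKM in 50 genes (%), median-ratio factor (no unit) and number of genes at 1 RPKM or more. The 50 genes are those with the highest mean over all 22 livers. Points are single livers sorted by value within each group, with mean ± SD in black. YC livers sit below all vehicle livers for the share and mostly above them for the factor and the number of genes.

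Single genes of that abundant set moved in both directions. Alb, encoding albumin (chromosome 5, 90460897 to 90476602 in mm10), lay between 14424 and 41031 RPKM in YC livers (median 22127) and between 38276 and 72566 RPKM in vehicle livers (median 47106), with 6 of 7 YC livers below every vehicle liver. The liver labelled YC 4 (41031 RPKM) was the one inside the vehicle range. The log2 fold change was -1.10 ± 0.21 (SE), -1.45 with median-ratio scaling, and -0.30 and not called with quantile normalization. Quantile normalization gives each rank the same value in every library, so it can flatten differences in the most abundant genes, such as Alb. Apoa2, a component of high-density lipoprotein, lay between 2456 and 3982 RPKM in YC livers (median 3284) and between 4483 and 9859 RPKM in vehicle livers (median 9283), without overlap. Apoe, Fabp1 (a fatty acid carrier) and Apoc1 also lost share. The genes that gained most share were Fth1 (a ferritin chain), Cyp2a5, Afp, Cyp2a4 and Gstm1. Fth1 was 4058 to 16932 RPKM in YC livers against 1956 to 7560.5 RPKM in vehicle livers and was not called (0.65 ± 0.31, SE), although it was called at 1.36 with quantile normalization, 0.81 without YC 4 and 0.79 without YC 5. Gstm1, a glutathione transferase, was not called either (0.26 ± 0.29, SE).

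The scale decides how many genes count as changed. In the limma fit, 5587 of 12537 genes (44.6%) were higher and 770 (6.14%) lower in YC livers as deposited at an adjusted p under 0.05, and with median-ratio scaling 2280 (18.2%) were higher and 2098 (16.7%) lower. In either direction 50.7% of genes were called as deposited and 34.9% with median-ratio scaling. As deposited, the median over all genes was a log2 fold change of 0.31, which median-ratio scaling brought to 0.01. Each of the 2280 genes higher after scaling was among those higher as deposited, and each of the 770 lower as deposited was lower after scaling, so no gene was called in opposite directions. Called on 1 scale alone were 3307 genes higher as deposited and 1328 genes lower with median-ratio scaling. At least 2-fold differences on both scales were found for 414 higher and 189 lower genes (as deposited 7.24% and 1.51% of genes tested passed, and with median-ratio scaling 3.3% and 3.59%). All 7 YC livers lay above all 8 vehicle livers on both scales for 306 genes (2.44%) and below them for 65 (0.518%). On single scales these shares were 6.52% and 0.558% as deposited and 2.61% and 1.3% with median-ratio scaling. Below, "rose" and "fell" are used of genes called on both scales unless a scale is named, fold changes are log2(YC) minus log2(vehicle) of RPKM + 0.5, the error after ± is the SE of the limma fit, and "scaled" marks the value or count after median-ratio scaling.

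Fold changes were lower for abundant genes than for scarce ones. Genes with a mean of 500 RPKM or more (159 genes, mean over the 15 livers) had a median log2 fold change of -0.29 as deposited (15 higher, 47 lower) against -0.63 with median-ratio scaling (5 higher, 89 lower). Medians for 714 genes at 100 to 500 RPKM were -0.03 and -0.38, and for 2300 genes at 20 to 100 RPKM 0.22 and -0.12. The 4128 genes at 5 to 20 RPKM had medians of 0.37 and 0.04. Genes in the lowest class, under 1 RPKM, had medians of 0.25 and 0.06.

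**Figure D3:**
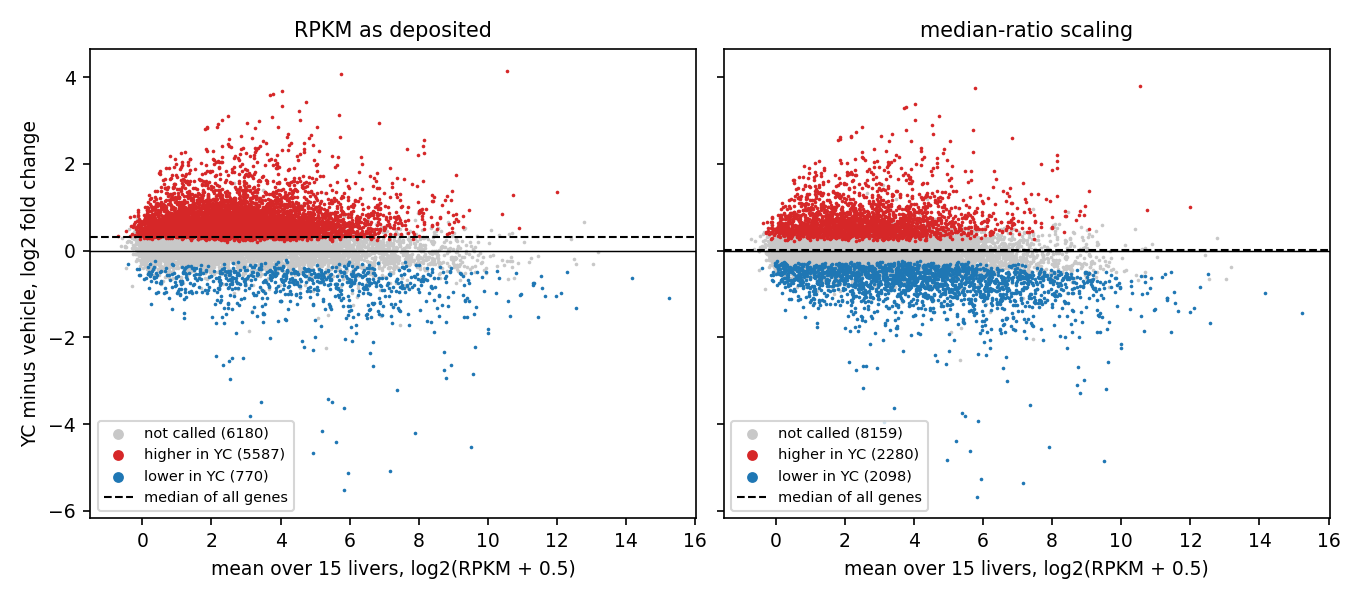
Log2 fold change of YC minus vehicle (vertical axis) against mean log2(RPKM + 0.5) over 15 livers (horizontal axis) for 12537 genes, as deposited on the left and with median-ratio scaling on the right. Red and blue points are genes called higher and lower, and the dashed line is the median of all genes, 0.31 and 0.01.

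The promoters of 5 genes that recur below are shown for 3 of the 6 short motifs that were searched for. Each line gives the 250 bases before the RefSeq transcription start (GRCm38.p6, 5′ to 3′ on the gene's strand), and capitals mark the motif. Alb and Afp, the adult and the fetal serum protein, moved in opposite directions, and both windows hold GTTAAT, core letters of a site for the hepatocyte factor HNF1. Asns and Slc7a11, members of the amino acid response, hold TGATGNAA on either strand. B2m, the invariant chain of class I antigen presentation, holds an interferon-stimulated response element (a pair of GAAA runs parted by any 2 bases).
Alb (chr5:90460620-90460869, plus strand): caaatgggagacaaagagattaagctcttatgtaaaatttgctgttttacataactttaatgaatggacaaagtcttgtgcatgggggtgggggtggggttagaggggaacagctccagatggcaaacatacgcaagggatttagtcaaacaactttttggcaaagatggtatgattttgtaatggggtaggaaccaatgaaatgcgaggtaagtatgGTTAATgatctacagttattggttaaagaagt
Afp (chr5:90490464-90490713, plus strand): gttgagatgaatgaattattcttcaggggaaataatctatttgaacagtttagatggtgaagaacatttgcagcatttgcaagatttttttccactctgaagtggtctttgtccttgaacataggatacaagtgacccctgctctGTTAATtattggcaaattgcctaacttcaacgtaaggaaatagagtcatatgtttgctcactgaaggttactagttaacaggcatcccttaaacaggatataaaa
Asns (chr6:7693210-7693459, minus strand): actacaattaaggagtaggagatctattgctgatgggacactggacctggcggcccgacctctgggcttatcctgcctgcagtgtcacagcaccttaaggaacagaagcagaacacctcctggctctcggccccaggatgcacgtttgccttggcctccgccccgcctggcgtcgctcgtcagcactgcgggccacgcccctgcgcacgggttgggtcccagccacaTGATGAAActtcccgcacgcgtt
Slc7a11 (chr3:50443614-50443863, minus strand): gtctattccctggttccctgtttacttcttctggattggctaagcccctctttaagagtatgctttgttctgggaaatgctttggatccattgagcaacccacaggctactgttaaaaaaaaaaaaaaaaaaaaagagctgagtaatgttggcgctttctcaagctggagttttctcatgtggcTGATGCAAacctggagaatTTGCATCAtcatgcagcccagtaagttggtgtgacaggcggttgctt
B2m (chr2:122147437-122147686, plus strand): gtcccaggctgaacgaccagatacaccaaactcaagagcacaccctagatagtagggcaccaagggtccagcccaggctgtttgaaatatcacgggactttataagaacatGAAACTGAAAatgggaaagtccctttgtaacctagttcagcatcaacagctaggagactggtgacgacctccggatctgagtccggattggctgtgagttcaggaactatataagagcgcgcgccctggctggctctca
The shares below were counted over 12376 promoters of 9673 tested genes, in the 250 bases before and 50 bases after the start. Of these windows 4.83% held GTTAAT, 2.43% TGATGNAA and 3.18% the interferon element (both strands searched). GTTAAT was in 13.3% of the promoters of genes at least 2-fold lower on both scales and in 4.13% of those at least 2-fold higher. TGATGNAA was in 36.7% of 30 promoters of the integrated stress response list, and the interferon element in 44.4% of 27 promoters of the interferon-stimulated list. TGATGNAA and the interferon element can share the letters GAAA, and the promoters of Mup genes, which are near-identical, raise the share of TGATGNAA among the fallers from 2.86% without them to 11.3% with them. The remaining motifs were TGACNNNGC, core letters of the antioxidant response element, GCGTG, the core of the aryl hydrocarbon receptor site, and CATGNCC, part of the p53 site. TGACNNNGC was in 14.3% of all promoters, in 25.9% of 27 promoters of the NRF2 list and in 18.4% of those at least 2-fold higher. Its share in the other lists searched ran from 11.1% (p53) to 23.1% (class I and II antigen presentation) and 23.3% (integrated stress response). The NRF2 share was therefore not particular to that list. GCGTG was in 48.8% of all promoters and in 45% of those at least 2-fold higher. CATGNCC was in 11% of all promoters and in 11.1% of 27 promoters of the p53 list. A match is a description of the letters and does not show binding.

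The largest rise was that of Afp (chromosome 5, 90490737 to 90508907), which was between 1246 and 5795 RPKM in YC livers (median 2463) and between 38.1 and 491 RPKM in vehicle livers (median 179). All 7 YC livers exceeded all 8 vehicle livers, and D0 livers held 3.05 to 8.68 RPKM. Its log2 fold change was 4.15 ± 0.49 (SE, adjusted p = 1.6e-06). Igf2 followed at 4.07 ± 0.51 (scaled 3.74), and Fgfbp1, which carries fibroblast growth factors, at 3.69 ± 0.34 (scaled 3.38). Fgfbp1 was between 14.4 and 41.3 RPKM in YC livers (median 32.8) and between 0.325 and 6.12 RPKM in vehicle livers (median 1.9), without overlap. Other risers without overlap were Cyp2s1 (3.62 ± 0.34), Krt20, an epithelial keratin (3.60 ± 0.33), and Rbp2, a retinol-binding protein (3.43 ± 0.38). Serpina5 (3.33 ± 0.36), a protease inhibitor, Akr1c18 (3.21 ± 0.46), a steroid-reducing enzyme, Cyp1a1 (3.12 ± 0.45), a target of the aryl hydrocarbon receptor, and Cited1 (3.12 ± 0.39), a transcriptional coregulator, complete the 10 with the largest rises without overlap.

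The largest falls were in major urinary protein genes and hepatocyte enzymes. Mup16 and Mup3 had log2 fold changes of -5.53 ± 1.00 and -4.51 ± 0.51, and without vehicle 1 and YC 4 these were -6.25 and -5.15. Mup-ps12, Mup2 and Mup11 fell as well, by values that reads shared between near-identical copies make uncertain, and Mup2 was not called without YC 6 and YC 7 although its value was -2.64. Cyp2c54 and Cyp2c50, P450 enzymes, fell by 3.49 and 3.21 on the log2 scale (-2.78 and -2.63 without YC 6 and YC 7). Sult2a8, a sulfotransferase, changed by -3.43 ± 0.49 (scaled -3.74), Inmt, an amine methyltransferase, by -2.94 ± 0.36 (scaled -3.29) and Thrsp, a lipogenic protein, by -2.36 ± 0.48 (scaled -2.70). Inmt was between 30.5 and 331 RPKM in YC livers (median 94.1) and between 467 and 949 RPKM in vehicle livers (median 714), and no YC liver reached the lowest vehicle liver. The counts of sex-biased lists that follow stand beside 44.6% of all genes higher and 6.14% lower as deposited, and 18.2% and 16.7% after scaling. Mup genes are male-biased, and among the 11 livers with Y-linked transcripts, 3 YC and 8 vehicle, Mup3 differed by -4.62 (adjusted p = 5.09e-05) and Mup16 by -5.59 (adjusted p = 0.00614), while Mup2 was not called there (-2.66, adjusted p = 0.121). Across 14 tested male-biased genes 2 rose and 6 fell as deposited (median -0.52), and 0 and 8 after scaling (median -0.73); without YC 6 and YC 7 these deposited counts were 1 and 5 (median -0.32). Across 18 tested female-biased genes 2 rose and 2 fell as deposited (median -0.30), and 1 and 5 after scaling (median -0.52); without YC 6 and YC 7 these deposited counts were 2 and 0 (median -0.27).

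**Figure D4:**
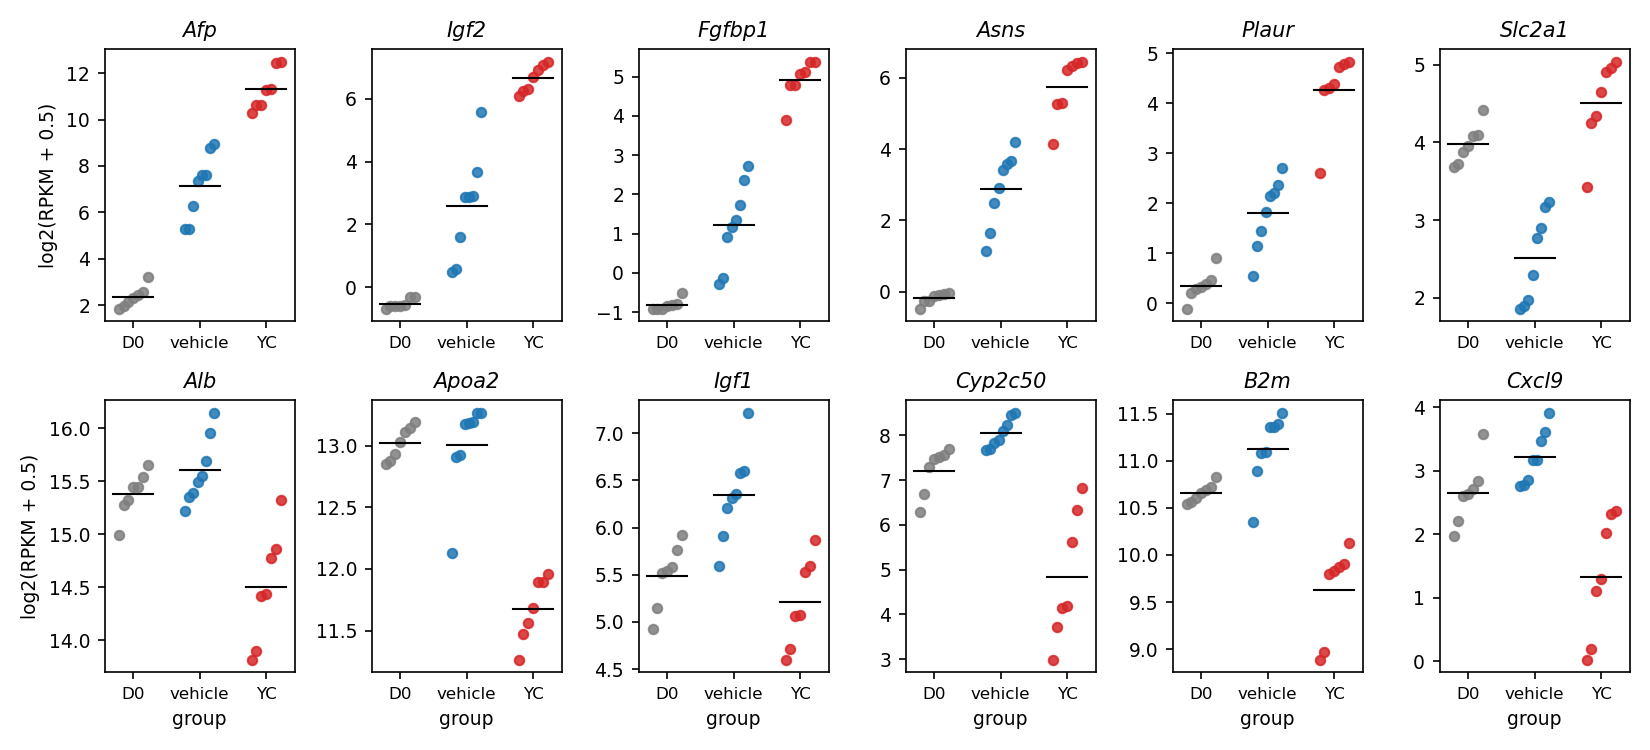
Log2(RPKM + 0.5) of 12 genes in single livers (points sorted by value, colour by group) with group means as black lines. The upper row shows genes that rose and the lower row genes that fell between vehicle and YC livers. D0 livers are shown for reference.

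Secreted proteins of the adult hepatocyte fell more often than they rose. Among 31 plasma carrier proteins 2 rose and 10 fell as deposited (median -0.26), and 2 and 16 after scaling (median -0.60); without YC 6 and YC 7 these deposited counts were 7 and 9 (median -0.13). Over all genes as deposited, 44.6% were higher and 6.14% lower. Azgp1, a zinc-binding glycoprotein, was between 223 and 527 RPKM in YC livers (median 289) and between 799.7 and 1194 RPKM in vehicle livers (median 959), without overlap, and fell by 1.52 on the log2 scale. Hamp2, a hepcidin gene, had a value of -2.76 ± 0.67 (-3.43 without vehicle 1 and YC 4). Hpx, hemopexin, which binds heme, fell by 0.98 without overlap, and was not called with quantile normalization (-0.67). Its value without YC 6 and YC 7 was -0.54. Risers in the list were Igfbp1, an insulin-like growth factor binding protein (2.25 ± 0.40, scaled 1.90), and Serpina7, the thyroxine-binding globulin (1.48 ± 0.30, scaled 1.14). Trf, transferrin, was not called as deposited (-0.31 ± 0.26). Serpina1e, an alpha-1-antitrypsin gene, had a value of -2.67 ± 0.68 and -1.90 without YC 6 and YC 7.

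Complement genes made by hepatocytes also fell more often than they rose, and the balance of the clotting list depended on the libraries taken. For comparison, 44.6% of all genes were higher and 6.14% lower as deposited, and 18.2% and 16.7% after scaling. Of 22 complement genes 2 rose and 10 fell as deposited (median -0.57), and 1 and 16 after scaling (median -0.91); without YC 6 and YC 7 these deposited counts were 4 and 9 (median -0.22). C8g was between 131 and 358 RPKM in YC livers (median 163) and between 417 and 842 RPKM in vehicle livers (median 627), without overlap. C8b had a value of -1.76 ± 0.48 and -0.87 without YC 6 and YC 7, and C9 of -1.37 ± 0.27. C4a rose (1.06 ± 0.23, scaled 0.76), and C3 was not called as deposited (-0.33 ± 0.38), while without YC 6 and YC 7 it was called at 0.44. Of 31 clotting and fibrinolysis genes 5 rose and 9 fell as deposited (median -0.33), and 4 and 16 after scaling (median -0.63); without YC 6 and YC 7 these deposited counts were 8 and 5 (median 0.01). Among livers with Y-linked transcripts the clotting counts were 7 higher and 9 lower (median -0.27). Klkb1, prekallikrein (-1.72 ± 0.34, scaled -2.06), and F9, clotting factor IX (-1.28 ± 0.26, scaled -1.62), fell. The plasminogen activator Plat (2.69 ± 0.42, scaled 2.37) and the urokinase receptor Plaur (2.47 ± 0.30, scaled 2.15) rose. Plaur was between 5.6 and 28 RPKM in YC livers (median 20.5) and between 0.964 and 6 RPKM in vehicle livers (median 3.47), with 6 of 7 YC livers above every vehicle liver. Fgg, a fibrinogen chain, did not pass the test (-0.14 ± 0.27). Of 28 acute phase proteins 5 rose and 3 fell as deposited (median 0.07), and 1 and 7 after scaling (median -0.27); without YC 6 and YC 7 these deposited counts were 14 and 4 (median 0.45).

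Apolipoproteins moved in both directions, with a larger share of lower genes than among all genes on both scales. Of 20 genes 7 rose and 6 fell as deposited (median -0.11), and 3 and 7 after scaling (median -0.44). All genes were 44.6% higher and 6.14% lower as deposited, and 18.2% and 16.7% after scaling. The share of higher apolipoprotein genes was below that of all genes as deposited and near it after scaling. Lipc, hepatic lipase, fell by 1.36 on the log2 scale without overlap, beside Apoa2 (-1.33 ± 0.17) and Apoc4 (-1.10 ± 0.20). Apoa4 rose (1.73 ± 0.24, scaled 1.39) and was between 559 and 1275 RPKM in YC livers (median 752) and between 137 and 415 RPKM in vehicle livers (median 244), without overlap. Mttp, the transfer protein of very low-density lipoprotein assembly, rose too (1.01 ± 0.19, scaled 0.66). Apoa1, the main high-density lipoprotein protein, was -0.02 ± 0.15 and did not pass the test. Apoe, the lipoprotein receptor ligand, was called as deposited at -0.64 ± 0.21, SE, adjusted p = 0.0145, but not without YC 6 and YC 7 (-0.40), among livers with Y-linked transcripts (-0.48) or with quantile normalization (-0.30).

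Drug-metabolizing P450s fell more often than they rose, against 44.6% of all genes higher and 6.14% lower as deposited. After scaling these shares of all genes were 18.2% and 16.7%. Of 40 genes 7 rose and 19 fell as deposited (median -0.60), and 3 and 21 after scaling (median -0.94). Their summed level as deposited did not fall. It was 10827 to 16684 RPKM in YC livers (median 14032) and 10953 to 12754 RPKM in vehicle livers (median 12135). Cyp2c50 was between 7.42 and 113 RPKM in YC livers (median 17.6) and between 203 and 363 RPKM in vehicle livers (median 255), and all 7 YC livers lay below all vehicle livers. Cyp2c44 had a value of -2.11 ± 0.42 (-1.41 without YC 6 and YC 7). Cyp2a5 rose (1.35 ± 0.28, scaled 1.00), as did Cyp2a4, a female-biased close copy, although its scaled value without YC 6 and YC 7 was 0.59 and not called. Cyp2d26 was not called as deposited (-0.36 ± 0.26). Of 44 conjugating enzymes 11 rose and 14 fell as deposited (median 0.06), and 4 and 16 after scaling (median -0.29). The sulfotransferase Sult5a1 (-1.54 ± 0.33, scaled -1.79) and the glucuronosyltransferase Ugt3a2 (-1.56 ± 0.21, scaled -1.91) fell, and Mgst3 (1.38 ± 0.34, scaled 1.03) rose. Without YC 6 and YC 7 Mgst3 was 0.84 as deposited, its scaled value was 0.51 and not called, nor was it called after scaling among livers with Y-linked transcripts (0.76). Of 24 uptake and export transporters 10 rose and 6 fell as deposited (median 0.12), and 9 and 8 after scaling (median -0.18); without YC 6 and YC 7 these deposited counts were 11 and 3 (median 0.11). The share of higher transporters was near that of all genes as deposited and above it after scaling. The export pumps Abcb1a (1.87 ± 0.27, scaled 1.56) and Abcc2 (1.72 ± 0.24, scaled 1.37) rose. Abcc2 was between 82.3 and 218 RPKM in YC livers (median 165) and between 23.8 and 86.9 RPKM in vehicle livers (median 45.2), with 6 of 7 YC livers above every vehicle liver, and D0 livers held 112 to 224 RPKM. Slc22a30 fell (-2.30 ± 0.43, scaled -2.62), as did the glucose transporter Slc2a2 (-1.07 ± 0.27, scaled -1.42). Slc13a3, a dicarboxylate carrier, rose without overlap (1.58 ± 0.22, scaled 1.24).

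Amino acid catabolism had 1 riser among 41 tested genes on both scales. Shares of all genes were 44.6% higher and 6.14% lower as deposited, and 18.2% and 16.7% after scaling. As a list, 2 rose and 20 fell as deposited (median -0.52), and 1 and 30 after scaling (median -0.86); without YC 6 and YC 7 these deposited counts were 2 and 11 (median -0.27). Haao, of tryptophan breakdown, was between 94.2 and 258 RPKM in YC livers (median 114) and between 242 and 431 RPKM in vehicle livers (median 367), with 6 of 7 YC livers below every vehicle liver. It had a value of -1.36 ± 0.20 (scaled -1.70). Afmid, also of tryptophan breakdown, fell (-1.35 ± 0.24, scaled -1.69), and so did Amdhd1, of histidine breakdown (-1.09 ± 0.29, scaled -1.43). Gldc, the glycine decarboxylase, rose (1.21 ± 0.20, scaled 0.87). Bhmt, of the methionine cycle, was not called as deposited (-0.50 ± 0.31) and was called after scaling (-0.85). Of 11 urea cycle and ammonia genes 0 rose and 2 fell as deposited (median -0.03), and 0 and 4 after scaling (median -0.38); without YC 6 and YC 7 these deposited counts were 1 and 1 (median 0.03). Otc, the ornithine transcarbamylase, changed by -1.03 ± 0.19 (scaled -1.38), and Gls2, a liver glutaminase, by -0.83 ± 0.24 (scaled -1.17), and by -0.51, not called, without YC 6 and YC 7.

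Enzymes of sugar use moved in both directions, beside all genes at 44.6% higher and 6.14% lower as deposited. After scaling, 18.2% of all genes were higher and 16.7% lower. Of 19 gluconeogenesis and glycogen genes 2 rose and 7 fell as deposited (median -0.49), and 1 and 10 after scaling (median -0.83). Khk, the fructokinase, changed by -1.47 ± 0.22 (scaled -1.81). Of 22 genes for glycolytic isozymes of fetal and proliferating cells 12 rose and 0 fell as deposited (median 0.56), and 6 and 3 after scaling (median 0.24). Pkm, the muscle-type pyruvate kinase, was between 74.3 and 343 RPKM in YC livers (median 253) and between 28.3 and 96.7 RPKM in vehicle livers (median 64.2), with 6 of 7 YC livers above every vehicle liver. It changed by 1.90 ± 0.28 (scaled 1.56). Slc2a1, the glucose transporter of proliferating cells, was between 10.3 and 32.4 RPKM in YC livers (median 24.7) and between 3.12 and 8.89 RPKM in vehicle livers (median 5.38), without overlap, and changed by 2.00 ± 0.24 (scaled 1.67). Ldha, a lactate dehydrogenase chain, was not called as deposited (-0.15 ± 0.17) and was called lower after scaling (-0.50). Of 13 genes of the pentose phosphate pathway and NADPH supply 8 rose and 2 fell as deposited (median 0.66), and 5 and 2 after scaling (median 0.31); without YC 6 and YC 7 these deposited counts were 6 and 1 (median 0.44), led by Pgd (1.53 ± 0.25, scaled 1.19).

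In each lipid and bile acid list the share of higher genes as deposited was below the 44.6% of all genes. All genes were 6.14% lower as deposited, and 18.2% higher and 16.7% lower after scaling. Of 26 genes of fatty acid and triglyceride synthesis 6 rose and 7 fell as deposited (median -0.22), and 3 and 12 after scaling (median -0.56). Scd1, the stearoyl-CoA desaturase, was between 45.8 and 638 RPKM in YC livers (median 107) and between 519 and 1784 RPKM in vehicle livers (median 1249), with 6 of 7 YC livers below every vehicle liver. It changed by -2.83 ± 0.50 (scaled -3.18). Fads1, a polyunsaturated fatty acid desaturase, had a value of -1.72 ± 0.41 (-1.05 without YC 6 and YC 7). Cidec, a lipid droplet protein, rose (2.62 ± 0.37, scaled 2.28). Of 29 genes of fatty acid oxidation 9 rose and 2 fell as deposited (median 0.01), and 4 and 10 after scaling (median -0.34). Vnn1, a pantetheinase (1.99 ± 0.27, scaled 1.65), Fgf21, the fasting hormone (1.69 ± 0.31, scaled 1.35), and Pdk4, a brake on pyruvate use (1.47 ± 0.34, scaled 1.13), rose, and Acaa2, a thiolase, fell without overlap (-0.73 ± 0.11, scaled -1.08). Of 15 bile acid genes 4 rose and 3 fell as deposited (median -0.12), and 3 and 5 after scaling (median -0.45). Cyp8b1, of cholic acid synthesis, rose (1.10 ± 0.28, scaled 0.75) and Baat, which conjugates bile acids, fell (-0.74 ± 0.13, scaled -1.08). Of 22 sterol synthesis genes 3 rose and 2 fell as deposited (median -0.15), and 1 and 5 after scaling (median -0.48); without YC 6 and YC 7 these deposited counts were 8 and 0 (median 0.25).

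Few transcription factors of the hepatocyte were called on both scales. Of all genes 44.6% were higher as deposited and 18.2% after scaling. As deposited, the share of higher genes was below that of all genes for these factors and near it for the bile duct list. Of 28 tested factors 10 rose and 0 fell as deposited (median 0.23), and 3 and 3 after scaling (median -0.09). The largest rises were Tbx3 (1.18 ± 0.27, scaled 0.87, and 0.86 scaled and not called among livers with Y-linked transcripts), Sox4 (1.10 ± 0.18, scaled 0.81) and Gata6 (0.87 ± 0.14, scaled 0.56), and for Sox4 and Gata6 all YC livers exceeded all vehicle livers. Cebpb was not called as deposited (-0.39 ± 0.25), was called lower after scaling (-0.74) and was called as deposited at -0.59 without vehicle 1. Of 18 fetal liver and oncofetal genes 13 rose and 0 fell as deposited (median 1.15), and 12 and 1 after scaling (median 0.86). Grb10, an imprinted growth regulator, was between 7 and 33.4 RPKM in YC livers (median 16.5) and between 1.42 and 4.04 RPKM in vehicle livers (median 2.63), without overlap, and changed by 2.42 ± 0.26 (scaled 2.10). Scd2 was not called (0.85 ± 0.45), and was called at 1.13 without vehicle 1. Of 21 bile duct and progenitor genes 9 rose and 0 fell as deposited (median 0.42), and 6 and 2 after scaling (median 0.10). Krt19, a bile duct keratin named after its values were seen, was between 4.22 and 30.1 RPKM in YC livers (median 20.9) and between 3.12 and 14.2 RPKM in vehicle livers (median 6.91), with 4 of 7 YC livers above every vehicle liver. Its value of 1.08 ± 0.37 was called as deposited and not with median-ratio scaling (0.75) or without YC 2 (0.91).

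In the lists of epithelial structure the shares of higher genes are read against those of all genes, 44.6% as deposited and 18.2% after scaling, and for the annexin and S100 list the share as deposited was near that of all genes. Of 36 claudins and junction genes 19 rose and 0 fell as deposited (median 0.50), and 12 and 1 after scaling (median 0.16). Marveld3, a tight junction protein, was between 1.97 and 7.76 RPKM in YC livers (median 5.33) and between 0.722 and 1.58 RPKM in vehicle livers (median 1.26), and changed by 1.58 ± 0.20 (scaled 1.28) without overlap, and Cldn4 by 2.99 ± 0.32 (scaled 2.68). Gjb1, the main hepatocyte gap junction protein, did not pass the test (0.15 ± 0.15). Of 22 integrins, laminins and matrix receptors 13 rose and 0 fell as deposited (median 0.59), and 8 and 2 after scaling (median 0.28). Itga3, a laminin receptor chain, was between 6.49 and 20.6 RPKM in YC livers (median 10.8) and between 1.51 and 5.15 RPKM in vehicle livers (median 2.76), without overlap, and Lamc1, a laminin chain, changed by 1.53 ± 0.20 (scaled 1.20). Of 37 cytoskeletal genes 19 rose and 3 fell as deposited (median 0.58), and 11 and 8 after scaling (median 0.23), with Tubb2a, a tubulin, at 1.66 ± 0.23 (scaled 1.32) and Fscn1, fascin, at -0.87 ± 0.22 (scaled -1.16). Of 19 annexins and S100 proteins 9 rose and 4 fell as deposited (median 0.67), and 6 and 4 after scaling (median 0.32). S100a6 (1.37 ± 0.38, scaled 1.03) rose and S100a1 (-1.32 ± 0.17, scaled -1.67) fell without overlap.

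Growth signalling genes moved in both directions. Over all genes 44.6% were higher and 6.14% lower as deposited, and 18.2% and 16.7% after scaling. As deposited, the shares of higher genes among ligands, receptors and Notch genes were near that of all genes. Of 26 tested ligands and carriers 13 rose and 2 fell as deposited (median 0.39), and 7 and 4 after scaling (median 0.11). Igf2 was between 67.1 and 144 RPKM in YC livers (median 104) and between 0.897 and 47.3 RPKM in vehicle livers (median 6.84), with every YC liver above every vehicle liver, and vehicle 1 was the highest vehicle liver. Bmp8b, a bone morphogenetic protein (2.05 ± 0.20, scaled 1.80), rose without overlap. Igf1, the adult growth hormone target, was between 23.7 and 58 RPKM in YC livers (median 33.2) and between 47.8 and 148 RPKM in vehicle livers (median 80), with 5 of 7 YC livers below every vehicle liver. It changed by -1.14 ± 0.22 (scaled -1.48), and D0 livers held 30 to 60.3 RPKM. Of 27 receptors 13 rose and 1 fell as deposited (median 0.34), and 4 and 2 after scaling (median 0.07). Tgfbr2, a transforming growth factor beta receptor (1.60 ± 0.18, scaled 1.26), Erbb3 (1.48 ± 0.32, scaled 1.16) and the scavenger of Igf2, Igf2r (1.15 ± 0.21, scaled 0.83), rose, and Ghr, the growth hormone receptor, fell (-1.28 ± 0.20, scaled -1.62). Of 17 YAP targets 10 rose and 0 fell as deposited (median 0.80), and 9 and 4 after scaling (median 0.46); without YC 6 and YC 7 these deposited counts were 11 and 1 (median 0.89), with Ajuba at 1.60 ± 0.24 (scaled 1.27). Of 18 Notch pathway genes 8 rose and 1 fell as deposited (median 0.29), and 0 and 2 after scaling (median 0.04); without YC 6 and YC 7 these deposited counts were 8 and 0 (median 0.41).

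Of the stress lists, those of the integrated stress response, p53 and NRF2 had the largest shares of risers, against 44.6% of all genes as deposited and 18.2% after scaling. Heat shock proteins were near the share of all genes after scaling, zinc and iron genes were near it as deposited, and endoplasmic reticulum chaperones were below it on both scales. Of 29 integrated stress response genes 20 rose and 0 fell as deposited (median 0.59), and 13 and 2 after scaling (median 0.34). Asns, the asparagine synthetase, whose promoter is given above, was between 17.2 and 87.1 RPKM in YC livers (median 74.6) and between 1.71 and 17.9 RPKM in vehicle livers (median 8.58), with 6 of 7 YC livers above every vehicle liver. It changed by 2.85 ± 0.38 (scaled 2.52). Slc7a11, the cystine importer, changed by 1.98 ± 0.38 (scaled 1.64). Of 26 p53 targets 20 rose and 1 fell as deposited (median 1.05), and 14 and 2 after scaling (median 0.72); without YC 6 and YC 7 these deposited counts were 19 and 0 (median 0.85). Cdkn1a, the cell cycle inhibitor p21, was between 27.7 and 163 RPKM in YC livers (median 96.1) and between 18.9 and 38 RPKM in vehicle livers (median 27), with 6 of 7 YC livers above every vehicle liver. It changed by 1.64 ± 0.28 (scaled 1.29), and the death receptor gene Tnfrsf10b rose without overlap (1.98 ± 0.19, scaled 1.69). Of 25 NRF2 targets 18 rose and 0 fell as deposited (median 0.94), and 12 and 0 after scaling (median 0.59), with Srxn1, sulfiredoxin, at 2.21 ± 0.38 (scaled 1.87). Of 21 cytosolic heat shock proteins 13 rose and 0 fell as deposited (median 0.42), and 4 and 1 after scaling (median 0.07), with Hspb1 at 1.67 ± 0.29 (scaled 1.32). Of 21 endoplasmic reticulum chaperones 5 rose and 2 fell as deposited (median 0.26), and 0 and 3 after scaling (median -0.08); without YC 6 and YC 7 these deposited counts were 9 and 1 (median 0.31). Mt2, a metallothionein, rose (1.61 ± 0.35, scaled 1.26) in a list of 21 zinc and iron genes in which 10 rose and 1 fell as deposited (median 0.46), and 6 and 4 after scaling (median 0.12); without YC 6 and YC 7 these deposited counts were 11 and 0 (median 0.49).

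Protein synthesis and turnover genes depended on the scale, as did all genes, with 44.6% higher and 6.14% lower as deposited. After scaling 18.2% of all genes were higher and 16.7% lower. Of 54 cytosolic ribosomal proteins 0 rose and 3 fell as deposited (median -0.23), and 0 and 29 after scaling (median -0.58); without YC 6 and YC 7 these deposited counts were 0 and 34 (median -0.53). Of 28 ribosome biogenesis genes 20 rose and 0 fell as deposited (median 0.51), and 8 and 1 after scaling (median 0.17), with Polr1a, the large subunit of RNA polymerase I, without overlap at 0.88 ± 0.12 (scaled 0.56). Of 31 proteasome subunits 19 rose and 0 fell as deposited (median 0.41), and 4 and 0 after scaling (median 0.07), with Psmd11 at 0.85 ± 0.13 (scaled 0.50). Of 53 nuclear-encoded respiratory chain subunits 0 rose and 3 fell as deposited (median -0.06), and 0 and 19 after scaling (median -0.41); without YC 6 and YC 7 these deposited counts were 0 and 18 (median -0.24). The table had 0 rows for mitochondrial genes.

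Cell cycle lists were mixed, beside all genes at 44.6% higher and 6.14% lower as deposited, and 18.2% and 16.7% after scaling. The share of higher genes as deposited was below that of all genes in both lists. After scaling, both replication shares were near those of all genes. Of 33 replication genes 10 rose and 3 fell as deposited (median 0.23), and 5 and 6 after scaling (median -0.07). The summed replication level as deposited was 327 to 469 RPKM in YC livers (median 374) and 204 to 331 RPKM in vehicle livers (median 250). Mcm2, of the replicative helicase, was between 7.07 and 13.9 RPKM in YC livers (median 12.3) and between 2.37 and 5.95 RPKM in vehicle livers (median 4.9), without overlap. Of 26 mitotic genes 2 rose and 3 fell as deposited (median -0.30), and 0 and 7 after scaling (median -0.52); without YC 6 and YC 7 these deposited counts were 2 and 0 (median -0.02). Ccnb1, a mitotic cyclin, had a value of -1.04 ± 0.35 as deposited and -0.73 without YC 6 and YC 7, where it was not called. The summed mitotic level was 31.7 to 150.4 RPKM in YC livers (median 49.3) and 39.9 to 200.3 RPKM in vehicle livers (median 81.9), so the groups overlapped.

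Genes of antigen presentation and of the interferon response fell more often than they rose. Among all genes 44.6% were higher and 6.14% lower as deposited, and 18.2% and 16.7% after scaling. Of 16 class I and II genes 1 rose and 8 fell as deposited (median -0.47), and 0 and 10 after scaling (median -0.80); without YC 6 and YC 7 these deposited counts were 2 and 4 (median -0.34). B2m was between 473 and 1117 RPKM in YC livers (median 908) and between 1308 and 2918 RPKM in vehicle livers (median 2397), without overlap, and changed by -1.50 ± 0.19 (scaled -1.85). H2-K1 changed by -1.16 ± 0.26 (scaled -1.50) and the class II gene H2-Aa by -1.17 ± 0.25 (scaled -1.52). Of 28 interferon-stimulated genes 1 rose and 12 fell as deposited (median -0.42), and 0 and 18 after scaling (median -0.74); without YC 6 and YC 7 these deposited counts were 3 and 10 (median -0.43). Irf7, a transcription factor of the interferon response, changed by -1.28 ± 0.28 (scaled -1.63) and Ifitm3 by -1.29 ± 0.23 (scaled -1.63). Of 23 chemokines 2 rose and 9 fell as deposited (median -0.44), and 1 and 10 after scaling (median -0.69); without YC 6 and YC 7 these deposited counts were 3 and 5 (median -0.53). Cxcl9, which attracts T cells, was between 0.513 and 4.69 RPKM in YC livers (median 1.95) and between 6.31 and 14.6 RPKM in vehicle livers (median 8.52), without overlap, and changed by -1.89 ± 0.32 (scaled -2.16). Ccl5 changed by -1.51 ± 0.39 (scaled -1.82), and Ccl25, a chemokine of the gut and thymus, rose without overlap (1.51 ± 0.22, scaled 1.18).

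Markers of other cell types moved beside these groups. Their counts are read against all genes, 44.6% higher and 6.14% lower as deposited, and 18.2% and 16.7% after scaling. Summed lymphocyte transcripts were 7.6 to 18.9 RPKM in YC livers (median 17) and 12 to 70.1 RPKM in vehicle livers (median 29.4), and of 13 tested genes 0 rose and 9 fell as deposited (median -0.87), and 0 and 9 after scaling (median -1.11). Cd3d, Cd3e, Cd79a and Ms4a1, the defining markers, were above 0 in every liver but low. Their medians were 0.64, 0.58, 1.15 and 0.23 RPKM in YC livers and 1.8, 0.94, 1.65 and 0.44 RPKM in vehicle livers. Ms4a1 was below the filter and was not tested. The T cell markers Cd3d and Cd3g had values of -1.10 ± 0.24 and -1.02 ± 0.26. Summed neutrophil transcripts were 269 to 879 RPKM in YC livers (median 628) and 77.3 to 349 RPKM in vehicle livers (median 178), and of 17 tested genes 10 rose and 0 fell as deposited (median 0.92), and 7 and 0 after scaling (median 0.63). Ly6g, Mpo, Elane and S100a8, the defining markers, were above 0 in every liver too. Their medians were 0.85, 4.49, 7.4 and 44 RPKM in YC livers and 0.29, 0.57, 1.18 and 19.7 RPKM in vehicle livers. The neutrophil sum also holds S100a9, which was not called as deposited, and Lcn2, which hepatocytes also make in the acute phase. Lcn2 changed by 2.35 ± 0.39 (scaled 2.01), and Elane, a neutrophil protease, by 2.04 ± 0.34 (scaled 1.74). Of 27 macrophage genes 6 rose and 3 fell as deposited (median -0.12), and 4 and 8 after scaling (median -0.42); without YC 6 and YC 7 these deposited counts were 6 and 9 (median -0.14). Of 20 endothelial genes 3 rose and 3 fell as deposited (median -0.10), and 0 and 11 after scaling (median -0.43); without YC 6 and YC 7 these deposited counts were 2 and 5 (median -0.14). Of 29 stellate and matrix genes 5 rose and 1 fell as deposited (median 0.11), and 3 and 6 after scaling (median -0.17); without YC 6 and YC 7 these deposited counts were 11 and 0 (median 0.21). Of 9 erythroid genes 2 rose and 3 fell as deposited (median -1.52), and 2 and 3 after scaling (median -1.84). Alas2, of erythroid heme synthesis, fell (-2.01 ± 0.33, scaled -2.32), and the carbonic anhydrase Car2 (1.72 ± 0.21, scaled 1.38) and the transferrin receptor Tfrc (1.28 ± 0.28, scaled 0.94), which other cells also express, rose. Tfrc was not called after scaling among livers with Y-linked transcripts (0.77). The part of these cell types in the hepatocyte, interferon and chemokine results was not tested.

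**Figure D5:**
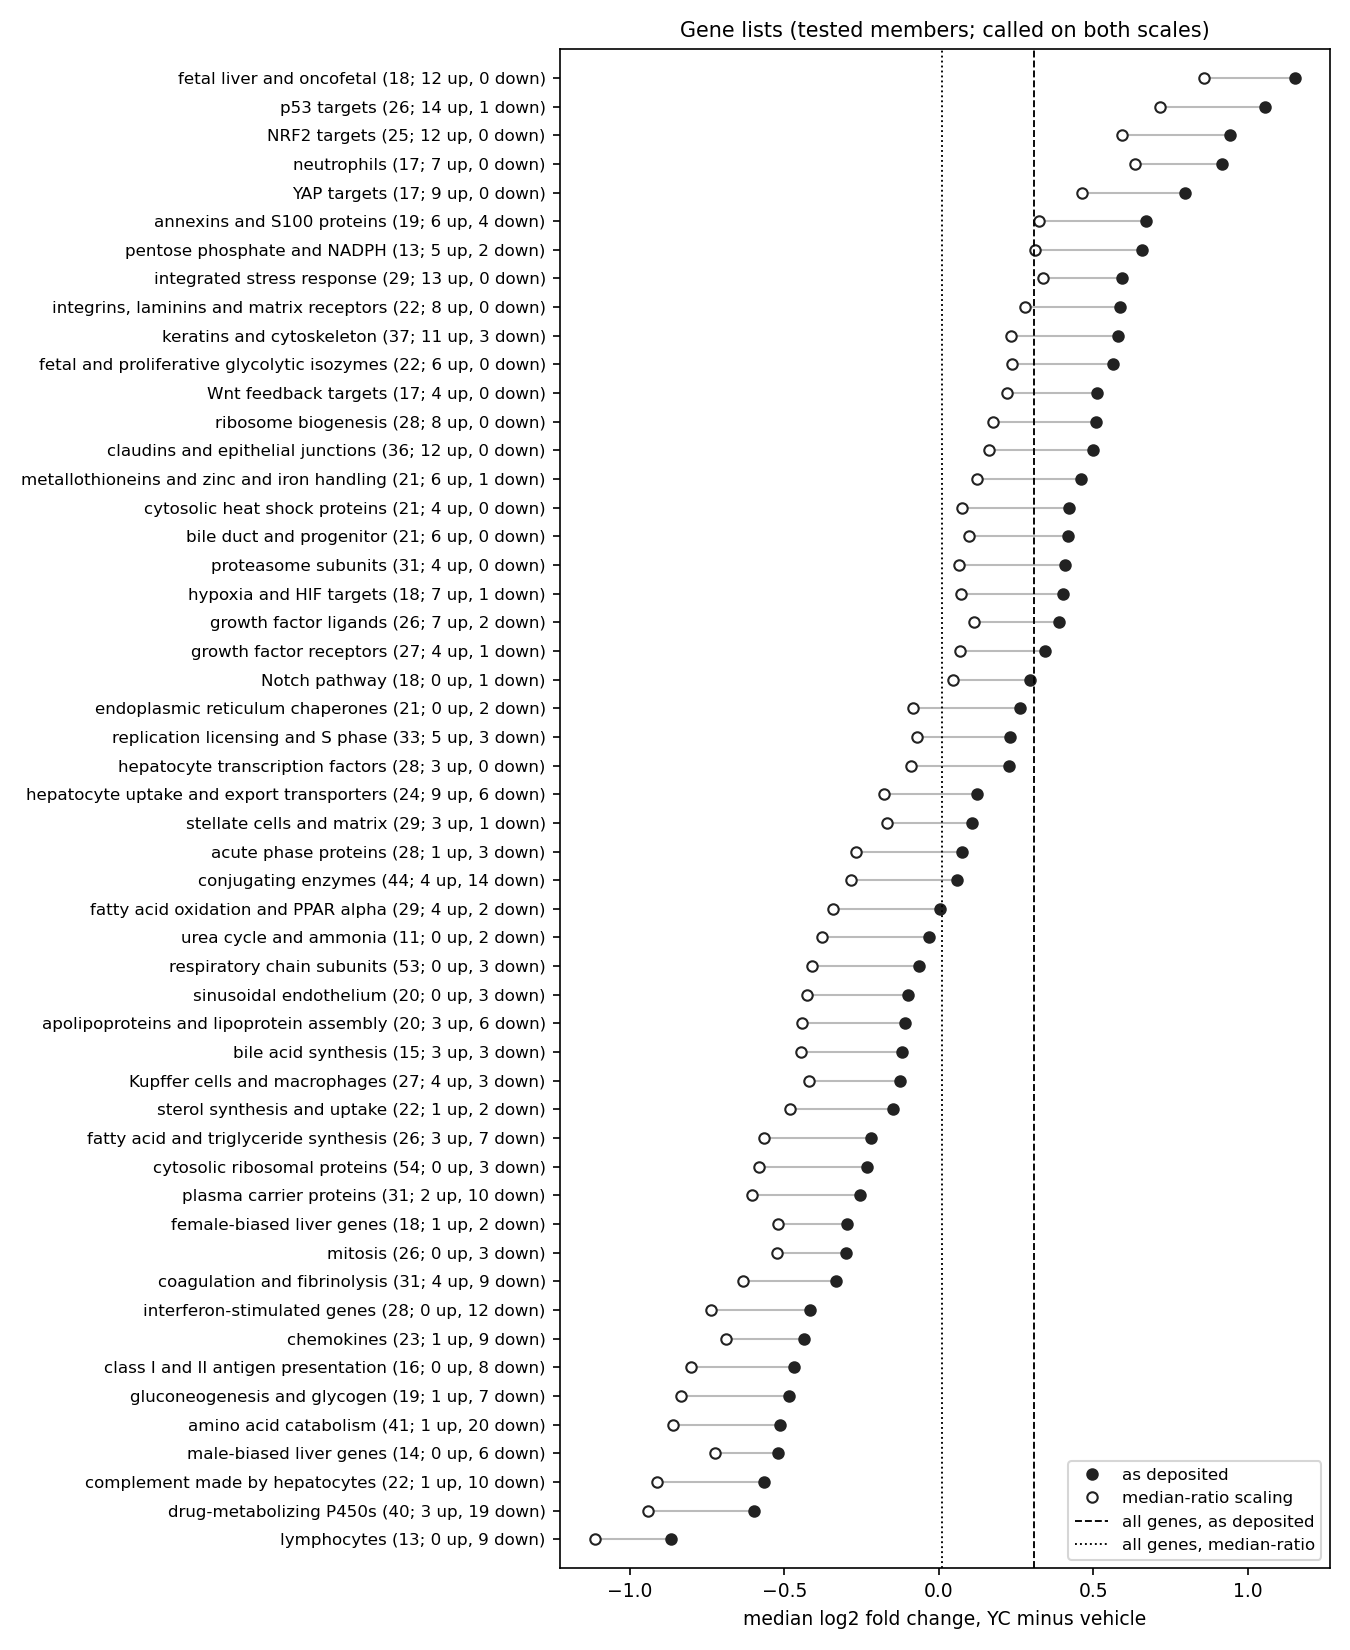
Median log2 fold change of YC minus vehicle (horizontal axis) for the gene lists drawn, each with its tested members and the numbers called on both scales, as deposited (filled) and with median-ratio scaling (open). The dashed and dotted lines are the medians of all genes, 0.31 and 0.01. P450s, complement and lymphocyte lists lie lowest, and fetal liver, p53 and NRF2 lists highest.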

How the data were processed

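Polyadenylated RNA of flash-frozen livers was sequenced, per the labels' protocols. The authors deposited a table of RPKM values, unpooled, with a column for each library. The submitters' processing notes name TopHat 1.4.1, Cufflinks 1.3.0 and mm10. The sources used here do not say which tool made the values, nor the annotation, filters or strand setting. If strand was not used, reads of overlapping and antisense genes are merged. The table had 18716 rows, 27 of them named as dates and 2 names repeated, and 17858 names matched GENCODE, whose mm10 gene positions are printed. The promoters come from RefSeq. Groups were taken from titles and treatment labels.

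The filter kept 12537 genes that reached 0.5 RPKM in 7 or more libraries. Their log2(RPKM + 0.5) values were fitted in R 4.3.3 by limma 3.58.1 (lmFit, then eBayes, robust and with a trend through statmod 1.5.0). A single model of the 3 groups took all 22 libraries, without covariates. Two-sided p-values were adjusted over all genes by Benjamini-Hochberg. The log scale understates the change of low genes. Library measures and Fah were tested by enumerating all 6435 divisions of the 15 livers, two-sided by absolute difference. Only 47.0% to 52.3% of low values were whole reads within 0.1 reads, so no count test was run. Depths were estimated from the steps of low values, and errors come from the spread between livers. Same-numbered livers did not deviate together, so the main fit did not pair them, although the titles do not say what the numbers mark. The fit was checked on simulated data. Other steps ran in Python 3.11.15 (pandas 2.3.3, numpy 2.4.6, matplotlib 3.10.9, scipy 1.17.1).

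The comparison, the 56 gene lists (1384 genes, of which 1265 were tested, 102 were below the filter and 17 were not in the table, 93 in more than 1 list) and the naming rule were chosen with earlier results of these data known. The rule named the 10 risers and 10 fallers with the largest changes called on both scales, with a mean of at least 5 RPKM and no overlap, up to 3 members per list and direction called on both scales, the most abundant member not called, Fah, and the 5 genes whose share of RPKM differed most in each direction. Some genes that the rule names, and some lists, are not reported here. Krt19, Prss2 and the Y-linked genes were chosen after their values were seen. Alternatives covered scaling, pseudocount, filter, libraries, model and leaving out each library.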

Additional observations from a re-analysis of the deposited data

Results flagged for a closer look

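In 13 of 272 sets of values (4.78%), 1 liver stood far from the rest of its group by Dixon's gap test at its 95% critical value, which chance alone does for about 1 in 20 sets. YC 4 was the liver in 8 of them. It was the lowest YC liver for Ajuba (7.18 RPKM), Fgfbp1 (14.4 RPKM), Plaur (5.6 RPKM), Serpina7 (10.7 RPKM), Tgfbr2 (16.6 RPKM) and Tnfrsf10b (2.33 RPKM), the highest for Acaa2 (635 RPKM), and had the lowest median-ratio factor of the YC livers (1.01). On the first principal component YC 4 was the YC liver nearest to the vehicle livers. Vehicle 1 was the lowest vehicle liver for Apoa2 (4483 RPKM), Fth1 (1956 RPKM) and Gls2 (126 RPKM). Vehicle 5 was the highest for Thrsp (526.3 RPKM), and YC 3 was the highest YC liver for Mup11 (0.378 RPKM).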

How the results depend on the processing

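Counts of changed genes depended on scaling. With quantile normalization 2257 genes were higher and 2109 lower (430 and 348 at least 2-fold), and with median-ratio scaling 2280 and 2098 (414 and 450). With a filter at a mean of 5 RPKM, which left 7279 genes to test, 3210 genes were higher and 502 at least 2-fold higher, and with array weights 1391 were lower. Among libraries with Y-linked transcripts 1373 genes were at least 2-fold higher and 285 lower. Median-ratio scaling was also combined with 2 library choices added after seeing the data. Without YC 6 and YC 7 it gave 2580 higher and 2266 lower (434 and 402 at least 2-fold), and among libraries with Y-linked transcripts 2453 higher and 2175 lower (648 at least 2-fold lower). Leaving out single livers gave 5029 to 6042 genes higher, 580 to 925 lower, 776 to 1166 at least 2-fold higher and 160 to 254 at least 2-fold lower. As deposited, all YC livers lay above all vehicle livers for 817 genes and below for 70. With median-ratio scaling these were 327 and 163, and with YC 6 and YC 7 left out, which leaves fewer livers to overlap, 1724 and 185. The difference in genes at 1 RPKM or more was not past the threshold after median-ratio scaling (185.8 genes, exact permutation p = 0.0903).

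With the replicate number as a block 4245 genes were higher and 565 lower. Same-numbered livers correlated between -0.386 and 0.214 in their deviations, and 1 of 7 numbers matched best with itself. A pairing was therefore not seen, but the titles do not say whether the numbers mark one. Why calls were lost under the block was not tested.

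Of 132 genes named, 128 kept sign and call with median-ratio scaling, 127 with quantile normalization, 127 without YC 6 and YC 7 and 130 with libraries holding Y-linked transcripts. The naming rule took risers and fallers only if called on both scales. The count under median-ratio scaling was therefore largely fixed in advance and does not measure how firm the calls are. C3 turned from -0.33, not called, to 0.44 without YC 6 and YC 7, and the cause was not tested. Alb was not called with quantile normalization (-0.30), which can flatten differences in the most abundant genes.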
